A study of Mus musculus with 24 samples.

Results

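*Slc29a3*-/- and WT mice were compared for all genes measured in Ly6C hi monocytes of the spleen. The 8 libraries of this comparison, 4 of each genotype, were taken by their labels out of 24 libraries in the series. The other libraries were Ly6C low monocytes of the same genotypes and both subsets of *Slc29a3*-/- *Tlr7*-/- mice. RNA was amplified with the Ion AmpliSeq Transcriptome Mouse kit, which reads 1 short amplicon per gene, and a value is the number of reads of that amplicon after scaling each library to 1000000 reads (RPM). WT mice were C57BL/6. In *Slc29a3*-/- mice, CRISPR/Cas9 had put a sequence with a stop codon into exon 2 of *Slc29a3* in the germline, so that every cell carried the mutation. The labels name no treatment, and the ages of these mice were not given. The labels call the cells macrophages, and the study sorted them as monocytes. Cells carrying CD3, NK1.1, Ly6G, TER-119 or a further marker were first removed with beads, and CD11b+ NK1.1- Ly6G- cells with high Ly6C and low FcγRIV were then sorted. The sources used here do not say that the 4 libraries of a genotype came from separate mice, and p-values then measure only the spread between libraries, which may be technical.

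SLC29A3 is a nucleoside transporter of the endosome and lysosome membrane, where it lets nucleosides freed from digested RNA and DNA pass into the cytosol. TLR7, a receptor of the same compartments, responds to guanosine and deoxyguanosine together with single-stranded RNA. Ly6C hi monocytes arise in the bone marrow from dividing progenitors shared with neutrophils, circulate, and are held in reserve in the spleen, and some lose Ly6C and become Ly6C low monocytes that patrol vessels.

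WT replicates 1 to 3 stood apart from WT replicate 4. They carried barcodes 14 to 16, WT replicate 4 carried barcode 29, and the *Slc29a3*-/- libraries carried barcodes 24 to 27. The Euclidean distance between libraries over the log2(RPM + 1) values of all genes tested was 23.1 to 24.3 among WT replicates 1 to 3, 63.7 to 64.7 between them and WT replicate 4, and 40.9 to 58.1 among the *Slc29a3*-/- libraries. In reads rebuilt from the smallest step between values, WT replicates 1 to 3 differed from each other by 6.2 to 8.7 times sampling noise (chi-square per degree of freedom) and from WT replicate 4 by 82.2 to 86.1 times, and *Slc29a3*-/- libraries differed from each other by 21.9 to 84.2 times. Repeat libraries of 1 RNA can exceed sampling noise too, so these values do not show whether WT replicates 1 to 3 were separate samples. They were kept apart as the labels list them, and calls that were lost with WT replicates 1 to 3 averaged into 1 sample are given as such below. Of 101 genes named here and called, 58 kept the call with that averaging and 38 against WT replicate 4 alone. What divided the WT libraries cannot be told apart from the barcode range or from sex. The rebuilt depth was 12561411 to 14415814 reads, at which a value of 0 allows up to 0.208 to 0.239 RPM (3 reads, counting error only).

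Sex-linked genes divided the WT libraries along the same line and the *Slc29a3*-/- libraries along another. *Xist*, the RNA that silences an X chromosome in female cells, read 563, 554, 612 and 0 RPM in WT and 0.876, 350.4, 502 and 410.3 RPM in *Slc29a3*-/- libraries. *Ddx3y*, an RNA helicase gene of the Y chromosome, read 0, 0, 0 and 96.95 RPM in WT and 81.8, 0, 0 and 0 RPM in *Slc29a3*-/- libraries. WT replicate 4 and *Slc29a3*-/- replicate 1 thus held the male pattern and the other 6 libraries the female one. The amplicon of *Slc29a3* (chr10:60712072-60752794, mm10) read 168, 163, 198 and 225 RPM in WT and 167, 173, 162 and 127 RPM in *Slc29a3*-/- libraries, a log2 difference of -0.26 ± 0.21 (SE) with an adjusted P of 0.38. Where this amplicon lies relative to the inserted sequence was not given, so it does not check the genotype.

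The genes of the sorting gate were read next. *Itgam*, which encodes CD11b, read 1753, 1819, 1771 and 1890.5 RPM in WT and 1759.5, 1525, 1821 and 1948 RPM in *Slc29a3*-/- libraries. *Fcgr4*, which encodes FcγRIV, was higher, at 40.6, 32.1, 35.6 and 25.97 RPM and 43.7, 62.5, 57.5 and 44.2 RPM (log2 difference 0.61 ± 0.18, adjusted P = 0.021, and 0.074 with WT replicates 1 to 3 averaged), and the groups did not overlap. *Klrb1c*, which encodes NK1.1, read 144, 136, 128 and 26.99 RPM and 4.46, 9.65, 1.59 and 4.37 RPM, so that WT replicates 1 to 3 held the most of this excluded marker. *Ly6g*, the neutrophil antigen that the gate excluded, read 31.8, 29.2, 33.5 and 17.9 RPM and 59.2, 96.9, 70.8 and 139 RPM, without overlap between the genotypes. *Siglecf*, an eosinophil antigen, read 3.47, 5.204, 6.02 and 3.59 RPM and 13.5, 5.46, 15.1 and 13.7 RPM. The calls of *Klrb1c*, *Ly6g* and *Siglecf* were lost with WT replicates 1 to 3 averaged (adjusted P = 0.12, 0.11 and 0.1). The genes of Ly6C itself, *Ly6c1* and *Ly6c2*, were matched to no amplicon by name, so their levels could not be read here.

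Genes of DNA replication, mitosis, histones and neutrophil granules were higher in *Slc29a3*-/- than in WT Ly6C hi monocytes, and immediate early, chemokine, dendritic cell, T cell and NK cell genes were lower. All of the lower lists fell less against WT replicate 4 than against WT replicates 1 to 3. The median log2 differences were -0.39 and -2.86 for immediate early genes and -0.42 and -1.01 for cytokines and chemokines. They were -1.29 and -1.57 for conventional and -1.24 and -1.59 for plasmacytoid dendritic cell genes. For T cell genes they were -1.62 and -3.26, and for NK cell genes -1.57 and -3.49. Of 10561 genes that reached 1 RPM in 4 or more of the 12 Ly6C hi libraries, 861 were higher (8.15%) and 1507 lower (14.3%) at a fold change over 1.5 and an adjusted P under 0.05 (limma on log2(RPM + 1), Benjamini-Hochberg adjusted over all genes tested). The scaling of the libraries set the balance between the directions. With TMM scaling 1283 genes were higher and 1072 lower, and with RLE scaling 1147 and 1187, so that the share of calls that were higher went from 36.4% to 54.5% and 49.1%. The median log2 difference of all genes tested was -0.14 as deposited, 0.02 with TMM and -0.03 with RLE. The log2 differences below are on the deposited scale and include that shift.

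The number of calls depended on the WT libraries. A comparison with WT replicate 4 alone, here and throughout, has 1 WT library. Its adjusted P takes the spread from the other groups of the fit, WT replicates 1 to 3 among them, and holds no spread of its own WT side. Against WT replicate 4 alone, 350 genes were higher (3.31%) and 184 lower (1.74%). With WT replicates 1 to 3 averaged into 1 sample, 433 were higher (4.1%) and 358 lower (3.39%). These last shares are the ones to set beside list genes called with that averaging. For list genes called over all 4 WT libraries the shares are 8.15% and 14.3%. The 4 *Slc29a3*-/- values were all above the 4 WT values for 1256 genes (11.9%) and all below for 2298 (21.8%), and they were all above WT replicate 4 for 2143 genes (20.3%) and all below it for 4379 (41.5%). Of the 861 genes called higher, 854 had the same sign against WT replicate 4, 710 differed from it by over 1.5-fold and 323 were called against it. Of the 1507 genes called lower, 1463 had the same sign, 1011 differed by over 1.5-fold and 136 were called. Against WT replicate 4, 82.5% of the higher and 67.1% of the lower calls thus kept a difference over 1.5-fold. WT replicate 4 and the same *Slc29a3*-/- libraries were part of the test that made the calls, so some of this agreement was built in. Within WT, 102 genes were higher and 24 lower in replicates 1 to 3 than in replicate 4.

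**Figure D1:**
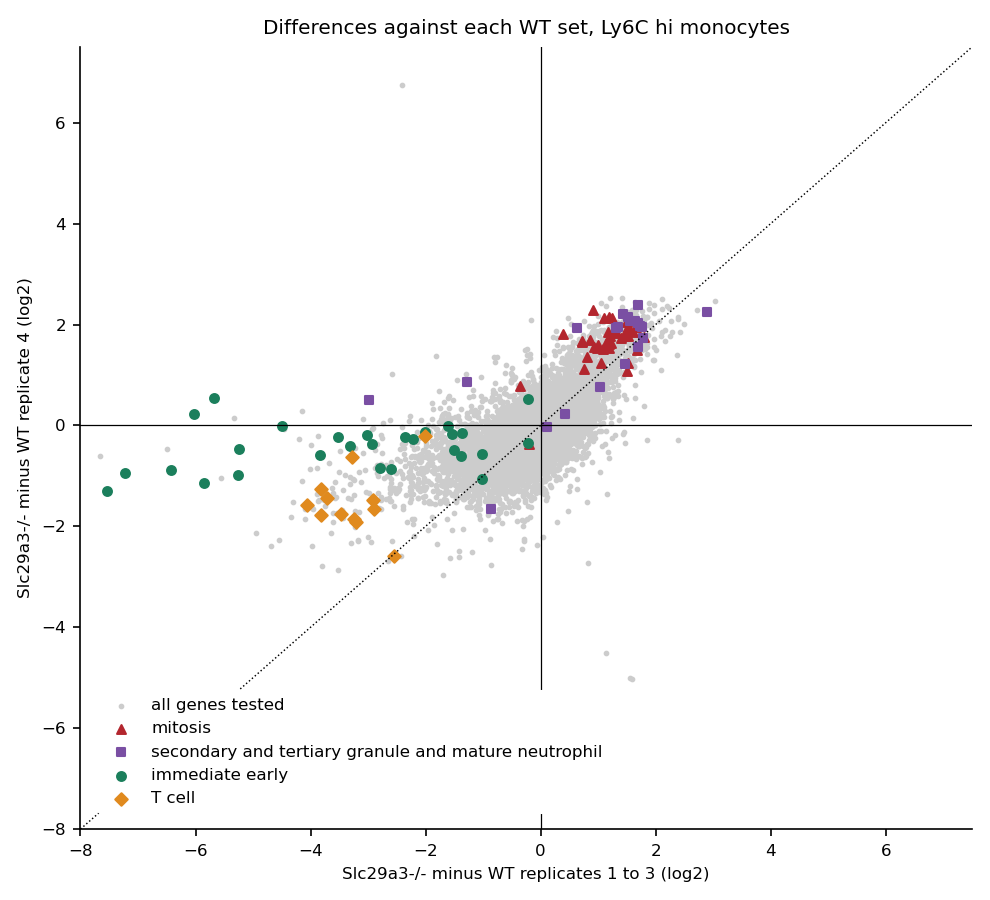
Each point is 1 gene tested, with the mean log2(RPM + 1) difference of the 4 *Slc29a3*-/- libraries from WT replicates 1 to 3 on the x axis and from WT replicate 4 on the y axis, and the dotted line marks equal differences. Mitosis genes (triangles) and granule genes (squares) lie mostly above 0 on both axes, whereas many immediate early genes (circles) lie far to the left but near 0 on the y axis.

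**Figure D2:**
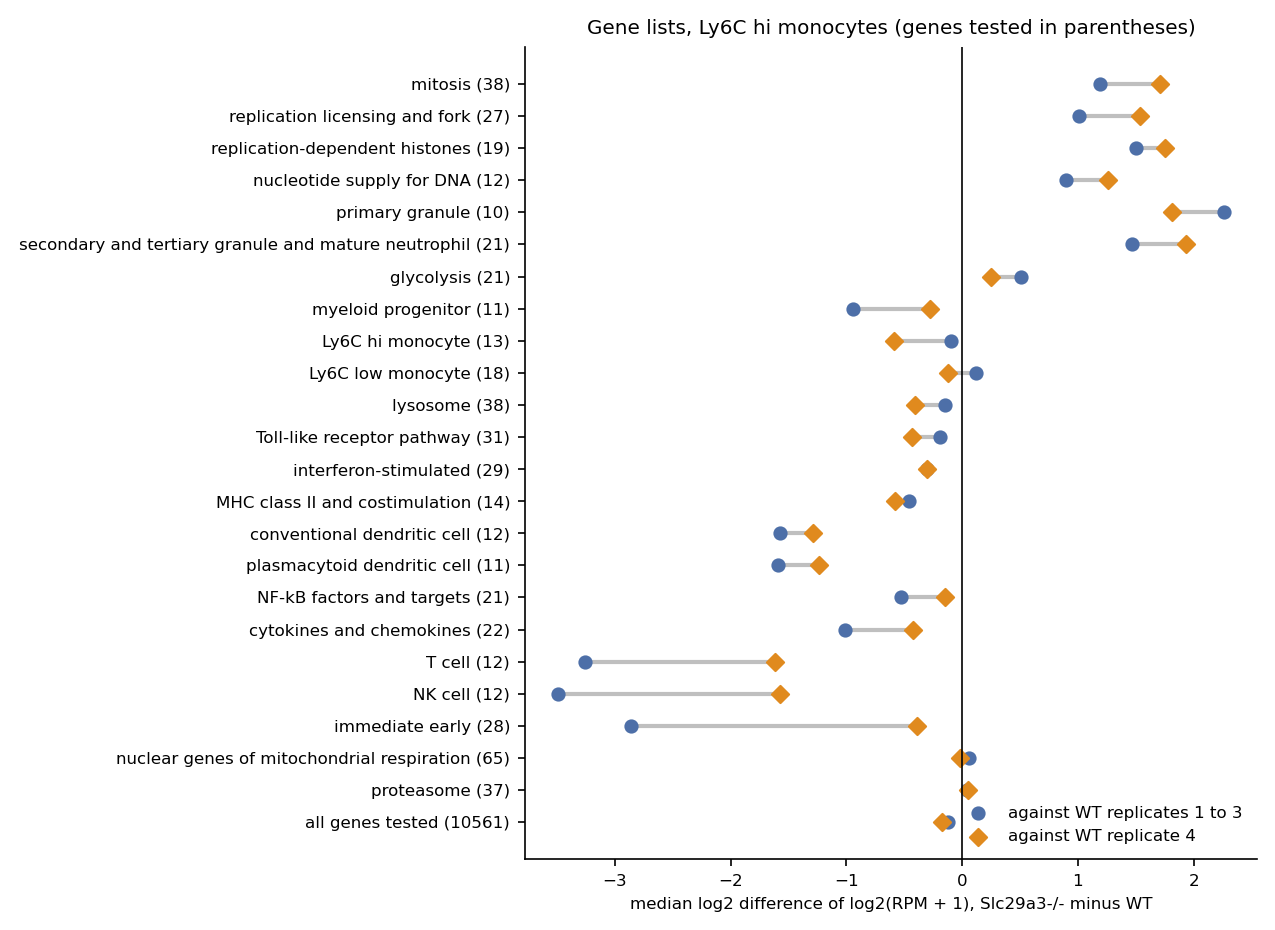
Each line joins the median log2 difference of a gene list against WT replicates 1 to 3 (circle) and against WT replicate 4 (diamond), with the number of genes tested in parentheses. The mitosis list sits at 1.19 and 1.71, the immediate early list at -2.86 and -0.39, and all genes tested at -0.12 and -0.17.

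Genes that copy DNA were higher in *Slc29a3*-/- Ly6C hi monocytes. Of 27 genes of replication licensing and the replication fork, 22 were higher and 0 lower, with a median log2 difference of 1.19 (1.01 against WT replicates 1 to 3, 1.54 against WT replicate 4), and 14 were called with WT replicates 1 to 3 averaged. *Mcm5*, a subunit of the replicative helicase, read 58.3, 57.9, 66.2 and 31.1 RPM in WT and 87.5, 99.9, 130.3 and 138 RPM in *Slc29a3*-/- libraries. The groups did not overlap, and the log2 difference was 1.11 ± 0.21 (SE, adjusted P = 0.0023). *Mcm3*, another helicase subunit, read 64.4, 66.6, 72.9 and 49.8 RPM and 120.4, 130.1, 169 and 176 RPM, a difference of 1.21 ± 0.17 (adjusted P = 0.00032). For *Cdc6*, which loads the helicase at origins, the values were 9.78, 7.15, 10.7 and 4.68 RPM and 16.9, 24.04, 28.1 and 38.8 RPM (difference 1.62 ± 0.39, adjusted P = 0.008). In all of these genes WT replicate 4 was the lowest library, so that the difference was larger against it than against WT replicates 1 to 3.

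Nucleotide supply and histone genes moved in the same direction. Of 12 genes that make or salvage nucleotides for DNA, 8 were higher and 0 lower (median 1.02), and 5 were called with WT replicates 1 to 3 averaged. *Rrm2*, the S phase subunit of ribonucleotide reductase, read 147, 138, 135 and 76.8 RPM in WT and 232, 243, 266 and 439.98 RPM in *Slc29a3*-/- libraries (difference 1.23 ± 0.29, adjusted P = 0.0065). *Tk1*, the S phase thymidine kinase, read 31.98, 33.7, 32.7 and 18.95 RPM and 68.2, 58.04, 74.5 and 115 RPM (difference 1.38 ± 0.23, adjusted P = 0.00098). Replication-dependent histone genes, whose mRNA accumulates in S phase, had the largest median of the cell cycle lists, 1.46, with 14 of 19 higher and 0 lower, and 13 still called with WT replicates 1 to 3 averaged. Their summed level was 3646 to 4354 RPM in WT and 10840 to 17330 RPM in *Slc29a3*-/- libraries. *Hist1h1b* (chr13:21779883-21780625), a linker histone, read 368, 352, 337 and 347 RPM and 1133, 1085, 1988 and 1903 RPM, with a difference of 2.06 ± 0.22 (adjusted P = 8.4e-05). *Hist2h4* read 344, 309, 352 and 469 RPM and 1652, 1704, 2014 and 2196 RPM, and *Hist1h2bm* read 53.1, 61.5, 60.1 and 69.1 RPM and 238, 298, 325 and 393 RPM. *Hist1h2ab* read 149.97, 136, 145 and 134 RPM and 570.1, 512, 968 and 734 RPM. Histone genes have near-identical copies, and reads of an amplicon may come from more than 1 of them.

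Of the cell cycle lists, mitosis had the largest share of genes called. Of 38, 35 were higher and 0 lower, with a median of 1.35 (1.19 against WT replicates 1 to 3, 1.71 against WT replicate 4), 37 had all *Slc29a3*-/- values above WT replicate 4, and 28 were called with WT replicates 1 to 3 averaged. Their summed level was 1761 to 1867 RPM in WT replicates 1 to 3, 1222 RPM in WT replicate 4 and 2831 to 4680 RPM in *Slc29a3*-/- libraries. *Tpx2*, which builds the spindle and activates Aurora A, read 21.4, 20.7, 24.5 and 22.9 RPM in WT and 64.2, 60.6, 109 and 91.8 RPM in *Slc29a3*-/- libraries. Here the 4 WT libraries lay together, and the difference was 1.78 ± 0.20 (SE, adjusted P = 0.00011). *Aurkb*, the kinase of the chromosomal passenger complex, read 51.1, 49.9, 56.02 and 35.1 RPM and 115, 96.5, 160.5 and 126 RPM (difference 1.35 ± 0.18, adjusted P = 0.00023). *Birc5*, survivin, of the same complex, read 119, 121, 121 and 58.3 RPM and 245, 188, 289 and 338 RPM (difference 1.36 ± 0.23, adjusted P = 0.001). For *Plk1*, the Polo-like kinase of mitotic entry, the values were 39.4, 43.3, 43.8 and 21.1 RPM and 70.3, 49.7, 63.9 and 108 RPM, a smaller difference of 0.96 ± 0.31 (adjusted P = 0.031) that was 1.68 against WT replicate 4. The call of *Plk1* was lost with WT replicates 1 to 3 averaged (adjusted P = 0.077), without WT replicate 4 and without *Slc29a3*-/- replicate 4.

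**Figure D3:**
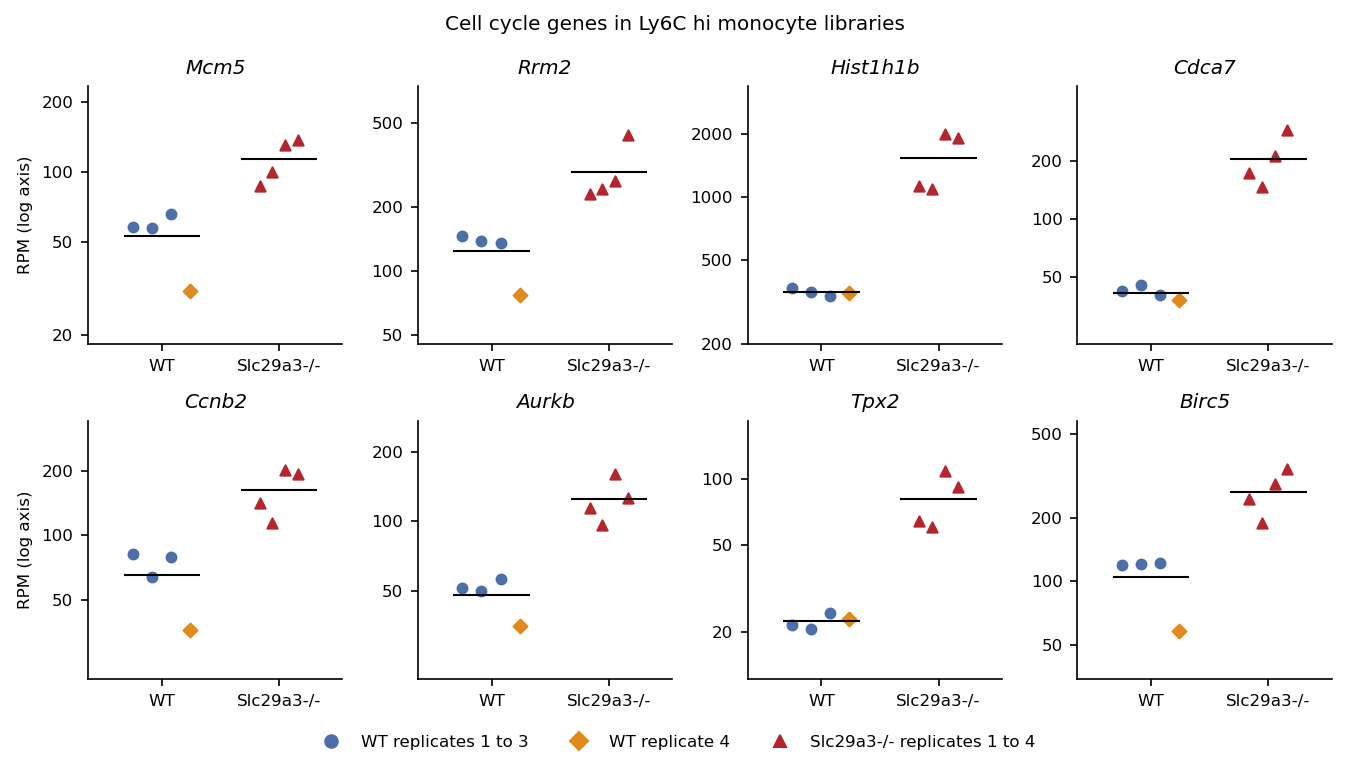
RPM on a log axis of 8 cell cycle genes in WT replicates 1 to 3 (circles), WT replicate 4 (diamond) and *Slc29a3*-/- replicates 1 to 4 (triangles). In each panel the 4 *Slc29a3*-/- libraries lie above the 4 WT libraries, as in *Tpx2*, where WT read 21.4, 20.7, 24.5 and 22.9 RPM. For *Hist1h1b* and *Cdca7* this came from the choice of genes.

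Among the regulators of the cycle, cyclins and their kinases did not move as a block. Of 20, 8 were higher and 2 lower, and with WT replicates 1 to 3 averaged 7 were higher and 1 lower. *Ccnb2*, a mitotic cyclin, read 82.1, 63.6, 78.8 and 36.04 RPM in WT and 142, 115, 203 and 194 RPM in *Slc29a3*-/- libraries (difference 1.35 ± 0.25, adjusted P = 0.0017). The 2 lower genes were *Ccnd1* and *Cdkn1a*. *Ccnd1*, the G1 cyclin D1, read 7.01, 6.38, 8.82 and 4.52 RPM and 1.67, 2.77, 0.951 and 1.67 RPM, and *Cdkn1a*, which encodes the p21 inhibitor of cyclin-dependent kinases, read 179, 214, 189.9 and 57.6 RPM and 46.7, 47.4, 26.96 and 47.97 RPM. WT replicate 4 lay near the *Slc29a3*-/- libraries for *Cdkn1a*, and the difference from it was -0.47 (adjusted P = 0.47), against -2.21 from WT replicates 1 to 3, and the call was lost with these averaged (adjusted P = 0.066). *Cdk6*, the G1 kinase of early myeloid cells, read 20.9, 21.995, 27.03 and 11.9 RPM and 33.5, 15.5, 58.5 and 35.6 RPM and did not pass the test (adjusted P = 0.14). Of 13 E2F and Rb factors, 7 were higher and 0 lower, but 3 were called with WT replicates 1 to 3 averaged. *E2f1*, an activator of S phase genes, read 35.2, 32.9, 36.5 and 34.5 RPM and 54.6, 56.1, 60.9 and 83.5 RPM (difference 0.84 ± 0.15, adjusted P = 0.0012). *E2f8*, a repressor that is itself an E2F target, read 79.2, 87.9, 85.4 and 36.97 RPM and 134, 151, 186 and 214 RPM (difference 1.29 ± 0.25, adjusted P = 0.0022). *Cdca7*, which works with a chromatin remodeller during replication and was among the largest increases, read 42.2, 45.2, 40.5 and 37.99 RPM and 174, 147, 212 and 289 RPM (difference 2.24 ± 0.24, adjusted P = 8.9e-05).

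Promoters of 4 genes that moved together are shown, 2 of mitosis and 2 of replication, because the lists differ in some of the motifs their promoters hold. Each runs from 250 bases before to 50 bases after the start of the gene in RefSeq (GRCm38.p6), 5′ to 3′ on the strand of the gene. Capitals mark matches, on either strand, to CCAAT (the box bound by NF-Y), TTTGAA (the core of the cell cycle homology region), GCGGGAA and TTTGGCG (E2F sites), and no matches overlapped in these 4. They lie at chr7:122159185-122159484 (plus strand), chr9:70421505-70421804 (minus), chr1:20820263-20820562 (minus) and chr8:75109259-75109558 (plus).
Plk1: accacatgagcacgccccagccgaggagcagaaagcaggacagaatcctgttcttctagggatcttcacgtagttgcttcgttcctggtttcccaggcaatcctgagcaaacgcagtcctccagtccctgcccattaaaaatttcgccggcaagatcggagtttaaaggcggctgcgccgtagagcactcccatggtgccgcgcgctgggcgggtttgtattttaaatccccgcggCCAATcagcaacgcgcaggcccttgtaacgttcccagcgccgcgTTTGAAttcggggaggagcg
Ccnb2: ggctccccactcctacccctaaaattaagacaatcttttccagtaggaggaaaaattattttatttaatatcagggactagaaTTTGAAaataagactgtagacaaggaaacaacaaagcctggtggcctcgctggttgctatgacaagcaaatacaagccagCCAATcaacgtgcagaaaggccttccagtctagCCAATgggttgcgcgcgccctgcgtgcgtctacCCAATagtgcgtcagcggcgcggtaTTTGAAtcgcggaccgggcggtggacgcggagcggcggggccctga
Mcm3: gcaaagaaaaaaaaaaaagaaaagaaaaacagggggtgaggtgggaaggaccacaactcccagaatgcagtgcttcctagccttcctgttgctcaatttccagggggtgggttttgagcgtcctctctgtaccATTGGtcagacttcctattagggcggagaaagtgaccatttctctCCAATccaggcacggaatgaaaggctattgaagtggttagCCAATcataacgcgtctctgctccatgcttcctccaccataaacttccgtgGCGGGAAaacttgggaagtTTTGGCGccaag
Mcm5: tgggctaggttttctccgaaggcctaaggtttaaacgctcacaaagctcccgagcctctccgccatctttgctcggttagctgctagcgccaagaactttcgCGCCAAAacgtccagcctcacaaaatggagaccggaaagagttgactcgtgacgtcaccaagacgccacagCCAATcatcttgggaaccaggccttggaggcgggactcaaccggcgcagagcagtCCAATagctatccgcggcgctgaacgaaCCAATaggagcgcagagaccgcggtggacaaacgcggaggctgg

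Of the 32 mitosis genes with a promoter in the RefSeq table, 23 (71.9%) held TTTGAA and 22 (68.8%) held CCAAT, and over 27025 genes the shares were 20.2% and 41.1%. Of 22 replication genes, 12 (54.5%) held GCGGGAA and 7 (31.8%) TTTGGCG, where the shares over 27025 genes were 5.29% and 1.77%. The E2F letters were found in 1 mitosis promoter each (3.12%), and TTTGAA in 5 replication promoters (22.7%). CCAAT was in 14 replication promoters (63.6%), a share near that of the mitosis list, so it did not separate the lists. These matches describe the letters of a window and not binding.

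The summed level of markers of neutrophils was also higher in *Slc29a3*-/- libraries. Over 22 genes of secondary and tertiary granules and of mature neutrophils it was 26930 to 36260 RPM in WT and 82630, 95190, 89940 and 151200 RPM in *Slc29a3*-/- replicates 1 to 4, where the mitosis list summed to 3620, 2831, 4587 and 4680 RPM. Replicate 4 had the highest sum of both lists, whereas replicate 2 had the second highest neutrophil sum and the lowest mitosis sum. In sorted bulk cells, more cells of a type and more RNA per cell cannot be told apart. The part of such cells in the cell cycle result was not tested.

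Genes of neutrophil granules were among the largest increases in *Slc29a3*-/- Ly6C hi monocytes. Of 10 primary granule genes, 8 were higher and 0 lower (median 2.13, 2.26 against WT replicates 1 to 3 and 1.81 against WT replicate 4), and 7 were called with WT replicates 1 to 3 averaged. *Elane*, neutrophil elastase, read 79.1, 86.9, 86.2 and 102 RPM in WT and 400.3, 225, 734 and 578 RPM in *Slc29a3*-/- libraries. The groups were 88.6 ± 9.76 and 484 ± 220.1 RPM (mean ± SD, n = 4 each) and differed by 2.31 ± 0.33 on the log2 scale (SE, adjusted P = 0.00034). *Prtn3*, proteinase 3, which lies next to *Elane* on chromosome 10 (chr10:79874476-79883174 and chr10:79886247-79888215), read 152, 146, 161 and 207 RPM and 649, 369.6, 1256 and 1046 RPM. *Ctsg*, cathepsin G, on chromosome 14 (chr14:56099881-56102574), read 59.4, 54.9, 54.5 and 84.6 RPM and 273, 126, 549.8 and 465 RPM. All 3 proteases were lowest in *Slc29a3*-/- replicate 2 and highest in replicate 3 among the *Slc29a3*-/- libraries. *Mpo*, myeloperoxidase, was scarce, at 1.32, 1.46, 1.89 and 3.98 RPM and 10.3, 6.64, 18.2 and 16.7 RPM (difference 2.12 ± 0.33, adjusted P = 0.00064). *Ms4a3*, a marker of granulocyte-monocyte progenitors, read 41.5, 41.4, 46.8 and 49.4 RPM and 204, 127, 306 and 249.8 RPM (difference 2.21 ± 0.27, adjusted P = 0.00016).

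Secondary granule genes were far more abundant. Of 21 genes of this list tested, 15 were higher and 2 lower (median 1.63), and with WT replicates 1 to 3 averaged 12 were higher and 0 lower. *Ngp*, neutrophilic granule protein, read 15666, 16065, 12962 and 9604 RPM in WT and 29135, 32942, 32876 and 57331 RPM in *Slc29a3*-/- libraries (difference 1.46 ± 0.39, adjusted P = 0.012). Its call was lost with WT replicates 1 to 3 averaged (adjusted P = 0.069), against WT replicate 4 alone (0.081), with no filter on low values and with all 24 libraries in the fit. *Camp*, cathelicidin, read 2058, 2099.7, 2145 and 1306 RPM and 5234, 7111, 5793 and 10101 RPM (difference 1.87 ± 0.34, adjusted P = 0.0014). The values of *Ltf*, lactoferrin, were 1539, 1445, 1869 and 1282 RPM and 4254, 4871, 5026 and 7073 RPM (difference 1.78 ± 0.39, adjusted P = 0.0048). For each of these genes *Slc29a3*-/- replicate 4 was the highest library. *Wfdc21*, a small secreted protein and the largest named increase, read 188, 204, 164 and 291 RPM and 1129, 1095, 1461 and 2013 RPM (difference 2.73 ± 0.37, adjusted P = 0.00026). *S100a8* read 4012, 3315, 3910.4 and 3830.2 RPM and 12678, 10552, 9922 and 20070.01 RPM, and *S100a9* read 8887, 7905, 9037 and 7278 RPM and 21652, 29826, 25319 and 40313 RPM. These 2 calcium-binding proteins of calprotectin are also made by Ly6C hi monocytes, and both differences passed the test (adjusted P = 0.02 and 0.0018). With WT replicates 1 to 3 averaged the adjusted P was 0.12 and 0.028, so that *S100a8* lost its call, as it did against WT replicate 4 (0.25).

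*Mmp8* and *Retnlg* were the 2 genes of the list called lower. *Mmp8*, the neutrophil collagenase, fell from 235, 242, 232 and 408 RPM in WT to 156, 122, 118 and 122.94 RPM in *Slc29a3*-/- libraries (difference -1.07 ± 0.30, adjusted P = 0.017, and 0.063 with WT replicates 1 to 3 averaged). *Retnlg*, a resistin-like protein of neutrophils that was named after its values were seen, read 274, 289.5, 261 and 23.5 RPM and 25.95, 24.04, 33.5 and 62.3 RPM, and its difference of -2.11 ± 0.63 (adjusted P = 0.023) turned to 0.51 against WT replicate 4 and lost its call with WT replicates 1 to 3 averaged (adjusted P = 0.3). *Cxcr2*, the chemokine receptor by which neutrophils leave the marrow, read 8.95, 10.5, 9.17 and 3.28 RPM and 11.3, 11.2, 20.54 and 20.9 RPM and missed the threshold (adjusted P = 0.064), with WT replicate 4 below all other libraries.

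Among transcription factors, *Gfi1* and *Cebpe* were called higher and *Irf8* lower. *Gfi1* (chr5:107716657-107726036), a repressor needed for neutrophil development, read 18.8, 16.7, 21.7 and 19.1 RPM in WT and 64.1, 49.6, 91.7 and 111 RPM in *Slc29a3*-/- libraries (difference 1.93 ± 0.22, adjusted P = 0.00013). *Cebpe*, the C/EBP factor of secondary granule genes, read 16.9, 15.96, 18.1 and 13.6 RPM and 65.4, 56.3, 71.8 and 60.6 RPM (difference 1.92 ± 0.28, adjusted P = 0.00042). In both, the 4 WT libraries lay close together and below every *Slc29a3*-/- library. *Irf8*, which directs progenitors toward monocytes and dendritic cells, was lower, at 677, 630.01, 672 and 582 RPM in WT and 323, 231, 233 and 179 RPM in *Slc29a3*-/- libraries (difference -1.43 ± 0.18, adjusted P = 0.00016). Against WT replicate 4 alone the differences of *Gfi1*, *Cebpe* and *Irf8* were 1.93, 2.14 and -1.30. *Spi1*, which encodes PU.1, a factor of both branches, read 955, 881, 932 and 991 RPM and 989, 901, 941 and 875 RPM and differed by -0.02 ± 0.11 (adjusted P = 0.91).

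**Figure D4:**
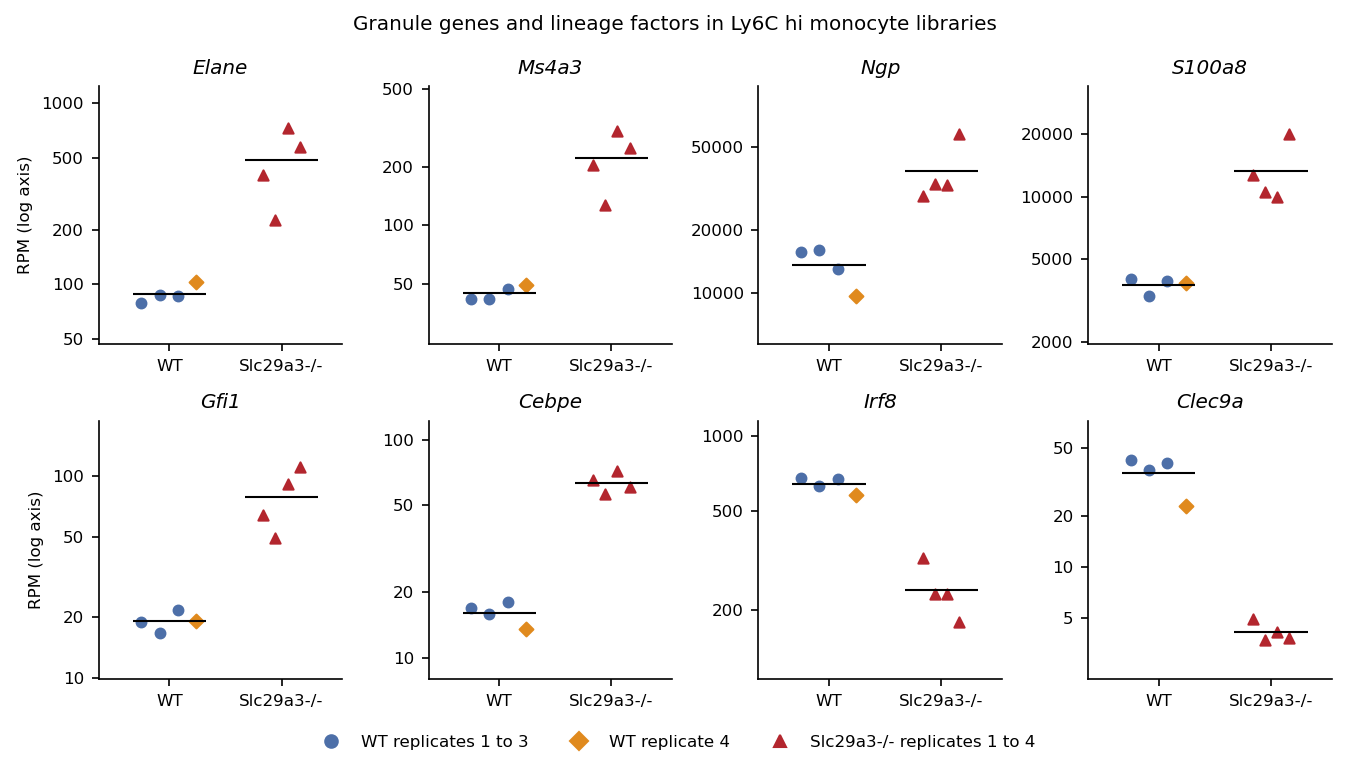
RPM on a log axis of 4 granule genes, 3 lineage factors and the dendritic cell gene *Clec9a* in WT replicates 1 to 3 (circles), WT replicate 4 (diamond) and *Slc29a3*-/- replicates 1 to 4 (triangles). *Gfi1* and *Cebpe* lie higher and *Irf8* lower in all 4 *Slc29a3*-/- libraries than in all 4 WT libraries.

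Over the 25 transcription factors of monocytes and granulocytes, *Gfi1* and *Cebpe* were the 2 called higher and 12 were lower (median -0.72), of which 4 were called lower with WT replicates 1 to 3 averaged. *Klf4*, a factor of monocyte differentiation, read 511, 519, 557 and 142 RPM in WT and 133, 224, 144 and 66.95 RPM in *Slc29a3*-/- libraries. WT replicate 4 fell within the *Slc29a3*-/- range, so that the difference of -1.54 ± 0.40 (adjusted P = 0.011) became -0.12 against it and lost its call with WT replicates 1 to 3 averaged (adjusted P = 0.17). *Cebpa*, which progenitors need to form granulocytes, read 320.00, 324, 346 and 209.7 RPM and 183, 143, 133 and 106 RPM, and all 4 *Slc29a3*-/- values lay below all WT values (difference -1.08 ± 0.20, adjusted P = 0.0019).

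Progenitor genes split. Of 11 myeloid progenitor genes tested, 2 were higher and 6 lower (median -0.94), and with WT replicates 1 to 3 averaged 1 was higher and 1 lower. *Flt3*, the receptor of early and dendritic cell progenitors, was lower, at 20.53, 19.98, 22.2 and 14.5 RPM in WT and 7.48, 8.38, 4.60 and 3.65 RPM in *Slc29a3*-/- libraries (difference -1.57 ± 0.25, adjusted P = 0.00071). *Kit*, the stem cell factor receptor, read 15.1, 17.00, 12.6 and 8.58 RPM and 22.8, 12.2, 33.1 and 32.01 RPM (adjusted P = 0.072). *Myb*, a factor of dividing progenitors, read 95.4, 104, 107 and 45.6 RPM and 126, 67.8, 132 and 193 RPM (adjusted P = 0.19). In *Kit* and *Myb*, *Slc29a3*-/- replicate 2 overlapped the WT libraries. The list's summed level was 230.8 to 354.7 RPM in WT and 245 to 450.2 RPM in *Slc29a3*-/- libraries.

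Other genes also stood higher against both sets of WT libraries. *Gm3942*, a long noncoding RNA (chr10:112837752-112845385), read 2.71, 1.94, 2.87 and 3.67 RPM in WT and 17.3, 19.3, 25.1 and 27.3 RPM in *Slc29a3*-/- libraries (difference 2.61 ± 0.23, adjusted P = 2.6e-05). *Clec4b2*, a C-type lectin receptor, read 7.28, 6.66, 8.40 and 5.38 RPM and 30.8, 26.1, 47.02 and 41.1 RPM (difference 2.21 ± 0.30, adjusted P = 0.00026). *Adgrg3*, an adhesion G protein-coupled receptor, read 35.8, 34.5, 33.1 and 29.95 RPM and 138, 107, 180.3 and 197 RPM (difference 2.15 ± 0.21, adjusted P = 4.6e-05). *Prom1*, prominin, which marks stem cells of several tissues, read 15.6, 12.3, 14.6 and 11.7 RPM and 46.7, 46.97, 75.4 and 70.6 RPM (difference 2.04 ± 0.24, adjusted P = 0.00013). These 4 genes were chosen for no overlap with WT and a large difference from both sets of WT libraries, so neither is a separate result. Their log2 differences from WT replicate 4 were 2.29, 2.51, 2.30 and 2.23.

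Some glycolysis genes rose, and few genes of respiration or the proteasome were called. Of 21 glycolysis genes, 8 were higher (38.1%) and 1, *Pfkm*, lower (4.76%), where the shares over all genes tested were 8.15% and 14.3%. Their median was 0.44 (0.25 against WT replicate 4), and 4 were called with WT replicates 1 to 3 averaged. Of 65 nuclear genes of mitochondrial respiration, 1 was higher and 2 lower (median 0.00). Of 37 proteasome genes, 1 was higher and 0 lower (median 0.03), and of 18 genes of cytosolic ribosomal proteins 0 were higher and 1 lower (median -0.28).

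Genes that mark Ly6C hi monocytes were read in all 8 libraries, and several were highest in WT replicate 4. Their summed level was 30270 to 30810 RPM in WT replicates 1 to 3, 40690 RPM in WT replicate 4 and 32170 to 39650 RPM in *Slc29a3*-/- libraries. Of 13, 2 were higher (15.4%) and 3 lower (23.1%), where the shares over all genes tested were 8.15% and 14.3%. Their median was -0.26, and with WT replicates 1 to 3 averaged 2 were higher and 0 lower. The 2 higher ones, *Hp* and *Cd177*, named after their values were seen, encode haptoglobin and a surface protein that neutrophils carry too. *Hp* read 443, 457, 441 and 554 RPM in WT and 849, 1005, 1135 and 903 RPM in *Slc29a3*-/- libraries, and *Cd177* read 518, 477, 499 and 593 RPM and 1215, 1430.1, 1239.7 and 1706 RPM. *Ccr2*, the chemokine receptor for exit from the marrow, read 323, 419.6, 380.02 and 1783 RPM in WT and 636, 350.3, 264 and 373 RPM in *Slc29a3*-/- libraries (difference -0.52 ± 0.61, adjusted P = 0.56). *F13a1*, coagulation factor XIII, read 1405, 1477, 1441 and 3323 RPM and 1644, 1312, 1176 and 969 RPM, a difference of -0.20 from WT replicates 1 to 3 and of -1.41 from WT replicate 4 (adjusted P against the latter = 0.017). *Vcan*, versican, read 107, 108, 111 and 508 RPM and 189, 170.3, 81.7 and 119 RPM (adjusted P = 0.76). In all 3, WT replicate 4 stood above every other library. *Fn1*, fibronectin, was lower, at 1532, 1571, 1622 and 2201 RPM in WT and 1164, 1083, 1267 and 774 RPM in *Slc29a3*-/- libraries (difference -0.70 ± 0.25, adjusted P = 0.046, and 0.13 with WT replicates 1 to 3 averaged).

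Of 18 Ly6C low monocyte genes, 5 were higher (27.8%) and 4 lower (22.2%), where the shares over all genes tested were 8.15% and 14.3%. With WT replicates 1 to 3 averaged 0 of these genes were called (limma, adjusted P under 0.05). Their median was -0.03 as deposited and 0.13 with TMM scaling. *Spn*, CD43, was higher, at 42.2, 35.3, 37.6 and 51.01 RPM in WT and 87.01, 87.6, 75.6 and 75.1 RPM in *Slc29a3*-/- libraries (difference 0.96 ± 0.28, adjusted P = 0.021, and 0.16 with WT replicates 1 to 3 averaged). *Cx3cr1*, the fractalkine receptor, which increases as Ly6C hi monocytes mature, read 70.5, 69.7, 96.6 and 143 RPM and 134, 114, 84.4 and 40.98 RPM, and *Slc29a3*-/- replicate 4 was below all WT libraries (adjusted P = 0.88). *Csf1r*, the M-CSF receptor, read 783, 743, 812 and 989 RPM and 997, 1141, 973 and 436 RPM, again with *Slc29a3*-/- replicate 4 lowest (difference 0.01 ± 0.24, adjusted P = 0.98).

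Immediate early genes were lower in *Slc29a3*-/- libraries, and the decreases followed the division within WT. Of 28, 0 were higher and 24 lower, with a median of -2.30, which was -2.86 against WT replicates 1 to 3 and -0.39 against WT replicate 4. With WT replicates 1 to 3 averaged, 7 were called. The summed level was 23200 to 23250 RPM in WT replicates 1 to 3, 4327 RPM in WT replicate 4 and 2216 to 3668 RPM in *Slc29a3*-/- libraries. *Fos* (chr12:85473890-85477273), a subunit of AP-1 that is induced within minutes by growth factors or by handling of cells, read 3572, 4128, 3879 and 145 RPM in WT and 79.5, 75.2, 49.8 and 62.6 RPM in *Slc29a3*-/- libraries. The difference was -4.67 ± 0.83 (SE, adjusted P = 0.0013) over all 4 WT libraries, and -1.13 (adjusted P = 0.25) against WT replicate 4. *Jun*, its partner, read 1736, 1763, 1684 and 22.3 RPM and 25.1, 21.5, 46.6 and 45.7 RPM, and WT replicate 4 fell at the low end of the *Slc29a3*-/- range, so that the difference turned from -4.12 to 0.54. *Egr1*, a zinc finger factor of the same response, read 497, 464, 536 and 5.54 RPM and 6.93, 7.43, 6.82 and 5.48 RPM, and its difference turned from -4.47 to 0.22. WT replicates 1 to 3 were at 2479, 2248 and 2586 RPM for *Dusp1*, a phosphatase of MAP kinases, WT replicate 4 was at 51.6 RPM, and *Slc29a3*-/- libraries were at 34.5, 24.98, 29.9 and 21.6 RPM. *Atf3*, a stress-induced factor, showed the same division, with 1502, 1463, 1439 and 74.4 RPM and 50.2, 44.1, 33.9 and 25.3 RPM. The calls of *Jun*, *Egr1* and *Dusp1* were lost with WT replicates 1 to 3 averaged (adjusted P = 0.23, 0.13 and 0.051).

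In 14 of the 28 immediate early genes all *Slc29a3*-/- values lay below all WT values, WT replicate 4 included, among them *Fos*, *Dusp1*, *Atf3*, *Fosl2*, *Junb* and *Zfp36*. Over all genes tested this share was 21.8%. The count below WT replicate 4 alone was also 14, where the share over all genes tested was 41.5%. *Fosl2*, an AP-1 subunit, read 737, 711, 685 and 733 RPM in WT and 373, 380.00, 321 and 333 RPM in *Slc29a3*-/- libraries, and its difference was -1.02 from WT replicates 1 to 3 and -1.06 from WT replicate 4 (adjusted P = 0.0049 over all 4 and 0.12 against WT replicate 4). *Junb* read 1624, 1549, 1622 and 413 RPM and 303, 263, 254 and 141 RPM, with all 4 *Slc29a3*-/- values below all WT values and a difference of -0.84 from WT replicate 4 (adjusted P = 0.16). *Zfp36*, which encodes an mRNA decay factor of cytokine transcripts, read 2929, 2625, 2583 and 286 RPM and 214, 226, 152 and 174 RPM. The calls of *Fosl2* and *Zfp36* were lost with WT replicates 1 to 3 averaged (adjusted P = 0.055 and 0.053).

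NF-κB and cytokine genes followed, less steeply. Of 21 NF-κB factors and targets, 0 were higher and 8 lower (median -0.52, -0.15 against WT replicate 4), and 1 was called with WT replicates 1 to 3 averaged. *Nfkbia*, the inhibitor IκBα, read 981, 928, 952 and 274 RPM in WT and 403, 354, 247 and 267 RPM in *Slc29a3*-/- libraries, and its difference of -1.16 ± 0.36 (adjusted P = 0.027) turned to 0.18 against WT replicate 4. Of 22 cytokines and chemokines, 0 were higher and 14 lower (median -0.86), and again 1 was called with WT replicates 1 to 3 averaged. *Ccl3*, a chemokine that attracts leukocytes, read 1004, 999, 947 and 6.32 RPM and 5.49, 3.48, 4.995 and 2.14 RPM. *Ccl2*, the ligand of CCR2, read 232, 224, 242 and 2.57 RPM and 3.18, 1.42, 1.74 and 0.635 RPM. In both, WT replicate 4 lay near the *Slc29a3*-/- libraries and far below WT replicates 1 to 3. *Rgs1*, a regulator of G protein signalling and the largest named decrease (-5.97 ± 1.07, adjusted P = 0.0014), read 286, 297, 275 and 2.81 RPM and 1.11, 0.316, 0.396 and 0.477 RPM. *Il1b* read 220.2, 228, 206 and 108 RPM and 88.9, 106, 74.8 and 38.6 RPM, with a difference of -1.32 ± 0.47 (adjusted P = 0.046) and of -0.57 (adjusted P = 0.68) against WT replicate 4. The calls of *Nfkbia*, *Ccl3*, *Ccl2* and *Il1b* were lost with WT replicates 1 to 3 averaged (adjusted P = 0.31, 0.081, 0.069 and 0.28).

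Some secreted factors were lower than in every WT library, which for *Thbs1* came from the choice of genes. *Thbs1*, thrombospondin 1, read 835, 763, 863 and 116 RPM in WT and 17.4, 41.8, 18.6 and 31.6 RPM in *Slc29a3*-/- libraries, a difference of -4.24 ± 0.68 (adjusted P = 0.00077) and of -2.14 (adjusted P = 0.16) from WT replicate 4. *Ccl9*, a CC chemokine of myeloid cells, read 1636, 1779, 1629 and 1976 RPM and 1251, 1055, 1080.5 and 768 RPM (difference -0.77 ± 0.21, adjusted P = 0.014, and 0.084 with WT replicates 1 to 3 averaged). The related chemokine *Ccl6* read 1221, 1261, 1283 and 1501 RPM and 956, 849, 976 and 556 RPM (difference -0.69 ± 0.23, adjusted P = 0.036, and 0.14 averaged). *Cd14*, the co-receptor for lipopolysaccharide, read 227, 245, 230.3 and 48.8 RPM and 22.7, 27.4, 29.97 and 22.2 RPM (difference -2.60 ± 0.48, adjusted P = 0.0016).

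**Figure D5:**
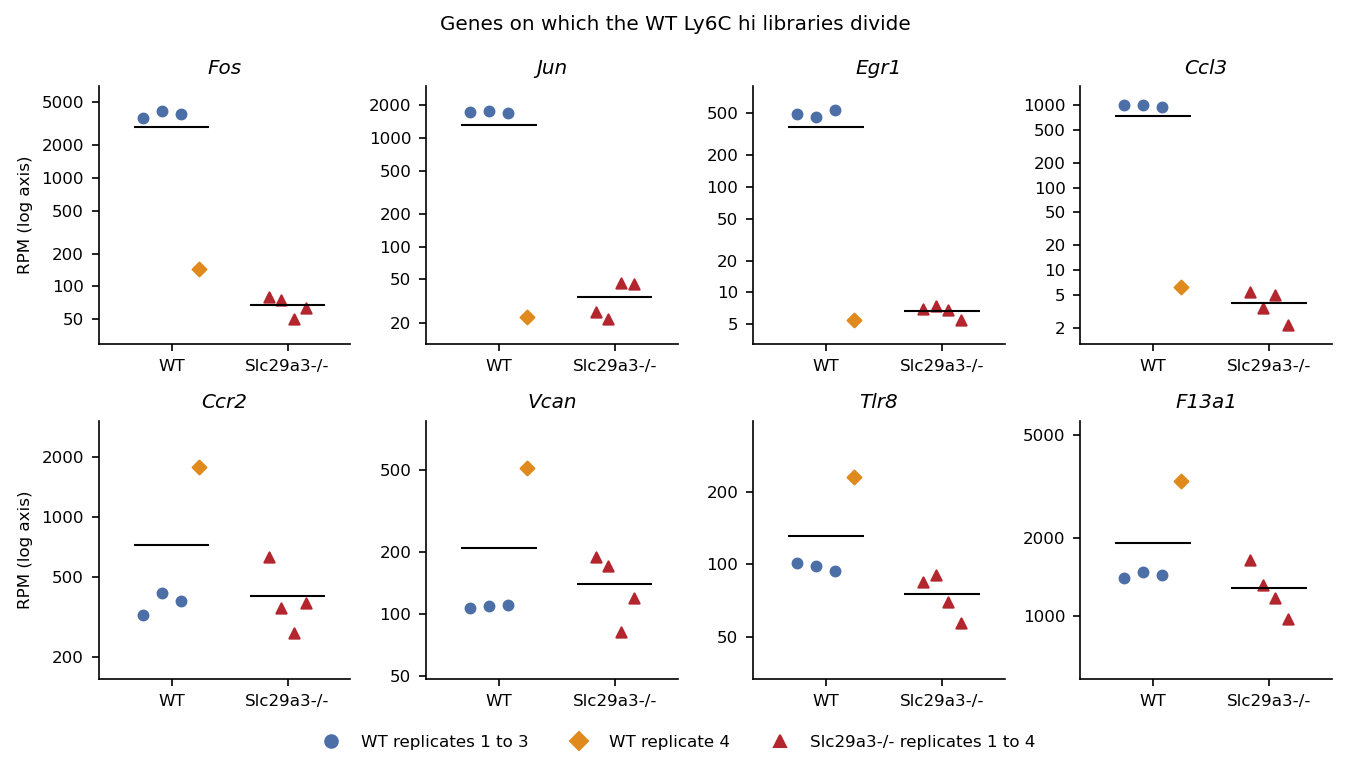
RPM on a log axis of 8 genes on which the WT libraries divide, in WT replicates 1 to 3 (circles), WT replicate 4 (diamond) and *Slc29a3*-/- replicates 1 to 4 (triangles). For *Fos*, *Jun*, *Egr1* and *Ccl3*, WT replicate 4 lies far below the other WT libraries, and for *Ccr2*, *Vcan*, *Tlr8* and *F13a1* it lies above them.

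The summed levels of T cell and NK cell markers divided the WT libraries as well. Over 14 T cell genes the sum was 343.9 to 356.4 RPM in WT replicates 1 to 3, 97.73 RPM in WT replicate 4 and 16.52 to 32.02 RPM in *Slc29a3*-/- libraries. Over 12 NK cell genes it was 691.3 to 725.2 RPM, 192 RPM and 121.6 to 190.9 RPM. The NK cell sum hides a split, as all *Slc29a3*-/- values lay below WT replicate 4 in 11 of the 12 genes and above it in 1. Over all genes tested these shares were 41.5% and 20.3%. None of the markers of either list was at 0 in all 8 libraries. Their part in the decreases of immediate early, NF-κB and cytokine genes was not tested.

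Of the 31 genes of the Toll-like receptor pathway, 1, *Tirap*, was higher and 9 were lower (median -0.31), and with WT replicates 1 to 3 averaged 0 were higher and 2 lower. *Tlr7* (chrX:167304929-167330558) read 263, 253, 209.8 and 336 RPM in WT and 227, 199, 181 and 111 RPM in *Slc29a3*-/- libraries, a difference of -0.59 ± 0.20 (SE, adjusted P = 0.042) that was lost with WT replicates 1 to 3 averaged (adjusted P = 0.11). *Tlr8*, its neighbour on the X chromosome, read 101, 98.5, 94.04 and 231 RPM and 84.3, 90.1, 70.3 and 57.02 RPM and differed from WT replicate 4 by -1.62 (adjusted P = 0.006) but over all 4 WT libraries by -0.70 ± 0.26 (adjusted P = 0.055). *Unc93b1*, the chaperone that brings nucleic acid-sensing TLRs to endosomes, read 1526, 1530.5, 1363 and 2000.1 RPM and 1146, 944, 1047 and 914 RPM, below every WT library (difference -0.66 ± 0.17, adjusted P = 0.012, 0.039 against WT replicate 4 and 0.058 with WT replicates 1 to 3 averaged). *Irak2*, a kinase of the signalling complex, read 92.3, 88.3, 101 and 67.9 RPM and 55.3, 69.3, 47.3 and 38.5 RPM (difference -0.74 ± 0.19, adjusted P = 0.01, and 0.14 with WT replicates 1 to 3 averaged). *Tlr4*, the receptor for lipopolysaccharide, read 38.4, 41.6, 38.2 and 92.9 RPM and 60.7, 58.98, 81.9 and 76.9 RPM, and *Tlr13*, a receptor for bacterial ribosomal RNA, read 47.1, 44.8, 45.5 and 142 RPM and 95.9, 134, 82.1 and 50.9 RPM. For these 2 receptors WT replicates 1 to 3 were the lowest libraries and WT replicate 4 the highest, and neither passed the test (adjusted P = 0.2 and 0.37).

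Of 29 interferon-stimulated genes, 1 was higher (3.45%) and 3 lower (10.3%), where the shares over all genes tested were 8.15% and 14.3%. Their median was -0.30, and with WT replicates 1 to 3 averaged 1 was higher and 1 lower. *Irf7*, the interferon factor downstream of TLR7, read 347, 334, 328 and 311 RPM in WT and 303, 347, 217 and 135 RPM in *Slc29a3*-/- libraries (difference -0.48 ± 0.24, adjusted P = 0.14).

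Of 26 Fc receptor and ITAM genes, 4 were higher (15.4%) and 5 lower (19.2%), where the shares over all genes tested were 8.15% and 14.3%. Their median was -0.25, and with WT replicates 1 to 3 averaged 2 were higher and 3 lower. *Fcer1g*, the common FcRγ adaptor, read 2769, 2657, 2299.7 and 2431 RPM in WT and 2213, 2110.5, 2102 and 1765 RPM in *Slc29a3*-/- libraries (difference -0.31 ± 0.15, adjusted P = 0.13). *Syk*, the kinase that binds ITAM adaptors, read 313, 346, 297 and 444 RPM and 365, 471, 402 and 349 RPM (difference 0.19 ± 0.16, adjusted P = 0.39). *Trem3*, a receptor that pairs with DAP12, was higher, at 154, 139, 135 and 167 RPM and 301, 265, 311 and 481 RPM (difference 1.15 ± 0.20, adjusted P = 0.0012). *Clec12a*, an inhibitory lectin receptor of myeloid cells, read 219.97, 258, 214 and 492 RPM and 563, 515, 453 and 921 RPM. Its difference of 1.08 ± 0.27 (adjusted P = 0.0089) shrank to 0.26 against WT replicate 4, which lay within the *Slc29a3*-/- range, and the call was lost with WT replicates 1 to 3 averaged (adjusted P = 0.14).

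Of 38 lysosome genes, 6 were lower (15.8%) and 1 higher (2.63%), where the shares over all genes tested were 14.3% and 8.15%. The share of lower genes was thus near that of all genes. Their median was -0.17 as deposited and 0.00 with TMM scaling, and with WT replicates 1 to 3 averaged 3 were lower and 0 higher. *Ctsl*, cathepsin L, was lower, at 91.4, 93.05, 75.9 and 99.995 RPM in WT and 40.1, 41.4, 44.5 and 31.4 RPM in *Slc29a3*-/- libraries, against WT replicate 4 as well (difference -1.18 ± 0.19, adjusted P = 0.00079, and 0.024 against WT replicate 4). *Pld3*, an exonuclease of the lysosome that digests single-stranded nucleic acids, read 34.6, 33.2, 36.5 and 30.97 RPM and 16.96, 16.8, 15.1 and 14.7 RPM (difference -1.04 ± 0.18, adjusted P = 0.0013). The 1 higher gene was *Cd63*, a tetraspanin of lysosomes and of primary granules, at 126, 114, 104 and 89.1 RPM and 315, 226, 293 and 559.5 RPM (difference 1.60 ± 0.38, adjusted P = 0.0072, 0.095 against WT replicate 4 and 0.056 with WT replicates 1 to 3 averaged).

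Nucleoside transport and salvage genes were called in both directions, 3 of 18 higher (*Slc28a2*, *Ada* and *Dck*) and 2 lower (*Adk* and *Nt5e*). These shares were 16.7% and 11.1%, where those over all genes tested were 8.15% and 14.3%. The median was 0.22, and with WT replicates 1 to 3 averaged 2 were higher and 1 lower. *Pfkm*, *Tirap*, *Dck*, *Adk* and *Nt5e* were named after their values were seen. *Slc28a2*, a sodium-coupled nucleoside importer of the cell surface, read 42.4, 35.5, 43.4 and 47.7 RPM in WT and 86.3, 74.5, 109 and 122 RPM in *Slc29a3*-/- libraries (difference 1.18 ± 0.21, adjusted P = 0.0015). *Ada*, adenosine deaminase, read 23.2, 23.4, 19.5 and 16.6 RPM and 46.7, 52.7, 79.9 and 111 RPM, above every WT library (difference 1.69 ± 0.30, adjusted P = 0.0012, and 0.029 against WT replicate 4).

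MHC class II and costimulation genes were lower in 6 of 14 (42.9%, against 14.3% of all genes tested) and higher in 0 (median -0.48). With WT replicates 1 to 3 averaged 3 were lower. *Cd86*, a ligand of CD28, read 52.6, 50.7, 46.6 and 48.7 RPM in WT and 28.5, 25.7, 23.9 and 15.7 RPM in *Slc29a3*-/- libraries, with the 4 WT libraries close together (difference -1.08 ± 0.19, adjusted P = 0.0013). *H2-Eb1*, an MHC class II chain, read 435, 406, 466 and 373 RPM and 315, 336, 236 and 176 RPM (difference -0.70 ± 0.20, adjusted P = 0.019). *Abca1*, the cholesterol exporter, read 31.6, 27.5, 32.6 and 26.9 RPM and 12.3, 14.9, 17.4 and 7.15 RPM (difference -1.19 ± 0.28, adjusted P = 0.0067). *C3*, the central complement component, was higher, at 1791, 1841, 1881 and 2709 RPM and 3404, 2845, 2761 and 5151 RPM, but the difference of 0.76 ± 0.25 (adjusted P = 0.037) was 0.34 against WT replicate 4. *Bcl2*, the survival factor, read 28.7, 22.8, 23.9 and 6.01 RPM and 6.13, 9.01, 8.01 and 5.24 RPM, and its difference of -1.24 ± 0.37 (adjusted P = 0.022) turned to 0.18 against WT replicate 4. The calls of *H2-Eb1*, *Abca1*, *C3* and *Bcl2* were lost with WT replicates 1 to 3 averaged (adjusted P = 0.15, 0.077, 0.26 and 0.29).

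Dendritic cell genes were lower, with medians below 0 against both sets of WT libraries. Of 12 conventional dendritic cell genes, 12 were lower (median -1.49, -1.29 against WT replicate 4), and of 11 plasmacytoid dendritic cell genes 10 were lower (median -1.47, -1.24 against WT replicate 4), and 7 of each list were called with WT replicates 1 to 3 averaged. Against WT replicate 4 alone 2 of the 12 and 3 of the 11 were called. *Clec9a*, a receptor of conventional type 1 dendritic cells, read 42.4, 36.9, 40.9 and 22.9 RPM in WT and 4.94, 3.72, 4.12 and 3.81 RPM in *Slc29a3*-/- libraries. The groups differed by -2.80 ± 0.23 (SE, adjusted P = 2.6e-05), and the difference from WT replicate 4 was -2.22. *Xcr1*, the chemokine receptor of the same cells, read 12.97, 15.1, 12.7 and 5.46 RPM and 0.637, 0.87, 0.872 and 2.30 RPM (difference -2.51 ± 0.36, adjusted P = 0.0004). *Siglech*, a lectin of plasmacytoid dendritic cells, read 41.9, 43.02, 38.5 and 13.7 RPM and 3.503, 1.26, 2.22 and 2.86 RPM (difference -3.27 ± 0.32, adjusted P = 4.4e-05, and 0.0047 against WT replicate 4). *Ccr9*, a chemokine receptor of the latter, read 4.30, 4.51, 5.04 and 7.18 RPM and 0.955, 0.237, 0.555 and 0.794 RPM (difference -1.94 ± 0.26, adjusted P = 0.00023). With all *Slc29a3*-/- values below 1 RPM, *Ccr9* passed the filter only through other libraries. Markers that enter a list in this way favour lower calls, here and in the lymphocyte lists below.

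Genes of lymphocytes, which the beads and gates were meant to remove, were lower too. Of 12 T cell genes, 12 were lower, with a median of -2.89 that was -1.62 against WT replicate 4, and 7 were called with WT replicates 1 to 3 averaged. *Cd3e* read 44.5, 39.7, 41.8 and 6.24 RPM in WT and 1.83, 4.35, 0.872 and 1.99 RPM in *Slc29a3*-/- libraries, and *Lck*, the kinase of the T cell receptor, read 62.7, 55.6, 62.9 and 11.6 RPM and 4.22, 6.88, 2.77 and 2.06 RPM. Of 12 NK cell genes, 11 were lower (median -3.02, -1.57 against WT replicate 4), and 1 was called with WT replicates 1 to 3 averaged. *Gzma*, granzyme A, read 203, 193, 179 and 54.2 RPM and 17.4, 20.7, 13.96 and 11.7 RPM, and *Ncr1*, the NKp46 receptor, read 42.1, 38.3, 36.97 and 10.9 RPM and 3.74, 3.48, 3.01 and 1.11 RPM. *Ctsw*, a protease of cytotoxic lymphocytes, read 92.4, 81.7, 82.1 and 16.8 RPM and 3.26, 3.79, 2.93 and 1.27 RPM (difference -3.98 ± 0.79, adjusted P = 0.0025). WT replicate 4 lay between WT replicates 1 to 3 and the *Slc29a3*-/- libraries for each of these 5 genes, and their calls were lost with WT replicates 1 to 3 averaged (adjusted P = 0.079, 0.13, 0.17, 0.15 and 0.055). Of the 3 B cell genes that could be tested, 3 were lower, 1 of them with WT replicates 1 to 3 averaged, and the sum over 10 was 43.29 to 62.39 RPM in WT and 18.11 to 24.84 RPM in *Slc29a3*-/- libraries. *Pou2af1*, a coactivator of B cells and plasma cells, read 85.3, 74.4, 64.7 and 39.2 RPM and 6.77, 3.08, 9.99 and 12.6 RPM (difference -2.96 ± 0.43, adjusted P = 0.00041), and *Mzb1*, a chaperone of plasma cells and plasmacytoid dendritic cells, read 39.1, 30.4, 33.5 and 27.9 RPM and 2.55, 8.54, 6.50 and 11.6 RPM.

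Among markers of other cells, *Prg2*, the eosinophil major basic protein, read 85.8, 95.5, 87.7 and 9.91 RPM in WT and 3.42, 1.58, 20.3 and 1.75 RPM in *Slc29a3*-/- libraries, and 3 of 5 eosinophil genes were lower and 1 higher. Its call was lost with WT replicates 1 to 3 averaged (adjusted P = 0.087), when 1 eosinophil gene was lower and 0 higher. Of 13 genes of red pulp macrophages, 6 were lower (46.2%) and 1 higher (7.69%), where the shares over all genes tested were 14.3% and 8.15%. Their median was -0.51, and with WT replicates 1 to 3 averaged 5 were lower and 1 higher. *Fcna*, ficolin A, read 23.5, 20.6, 19.6 and 13.1 RPM and 1.51, 1.19, 1.03 and 0.238 RPM, the largest decrease against both sets of WT libraries (difference -3.36 ± 0.39, adjusted P = 0.00013, and 0.018 against WT replicate 4). *C1qb*, a chain of complement C1q, read 27.3, 29.7, 35.5 and 33.1 RPM and 11.1, 6.64, 5.87 and 5.88 RPM (difference -1.99 ± 0.25, adjusted P = 0.00019). The summed level of the red pulp list was 515.6 to 625.2 RPM in WT and 445.4 to 579.9 RPM in *Slc29a3*-/- libraries, ranges that overlapped.

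The *Slc29a3*-/- effect in Ly6C hi monocytes was compared with that in Ly6C low monocytes of the same genotypes, 4 libraries each. In Ly6C low monocytes 321 of 10901 genes were higher (2.94%) and 377 lower (3.46%). Of the 861 genes higher in Ly6C hi monocytes, 50 were also called higher in Ly6C low monocytes, 5.81% of the former and 15.6% of the latter. Of the 1507 lower genes, 183 were also called lower, 12.1% and 48.5%. A test of the difference between the effects called 457 genes with a higher effect in Ly6C hi monocytes (4.19%) and 515 with a lower one (4.72%). Against WT replicate 4 of each subset alone it called 141 and 56, and with WT replicates 1 to 3 averaged in each subset 168 and 92.

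Of the 38 mitosis genes, 19 were called with a higher effect in Ly6C hi than in Ly6C low monocytes, as were 13 of the 27 replication genes and 12 of the 19 histone genes. *Aurkb* read 4.61, 5.15, 2.25 and 5.98 RPM in WT and 3.82, 4.40, 3.87 and 5.72 RPM in *Slc29a3*-/- Ly6C low libraries, and the difference between the effects was 1.32 ± 0.32 (SE, adjusted P = 0.0095, and 0.022 against WT replicate 4 of each subset). *Hist1h1b* read 74.8, 87.3, 72.3 and 80.6 RPM and 35.6, 47.6, 56.2 and 77.1 RPM in Ly6C low libraries, and its effects differed by 2.64 ± 0.34 (adjusted P = 3.7e-05, and 0.017 against WT replicate 4). *Gfi1* read 1.26, 1.78, 1.54 and 0.46 RPM and 0.159, 0.24, 0.552 and 0.079 RPM, and the difference between its effects of 2.75 ± 0.34 (adjusted P = 2.5e-05) was 2.15 against WT replicate 4 (adjusted P = 0.028).

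Of the 21 secondary granule genes, 18 were called with a higher effect in Ly6C hi monocytes, and of the 10 primary granule genes 7, but both examples given lost the call against WT replicate 4 of each subset. *Ngp* read 405, 753 and 332 RPM in Ly6C low WT replicates 1 to 3, 19.2 RPM in WT replicate 4 and 8.35, 29.4, 19.3 and 70.2 RPM in *Slc29a3*-/- libraries. Its effects differed by 4.53 ± 1.27 (adjusted P = 0.025), by 3.60 with WT replicates 1 to 3 averaged (adjusted P = 0.31) and by 1.60 against WT replicate 4 (adjusted P = 0.78). For *Elane* the Ly6C low values were 5.45, 13.9, 3.72 and 0.92 RPM and 0.318, 0.56, 1.26 and 2.86 RPM, and its effects differed by 3.71 ± 0.63 (adjusted P = 0.00062, 0.031 with WT replicates 1 to 3 averaged and 0.3 against WT replicate 4). The *Slc29a3*-/- Ly6C low libraries lay on both sides of WT replicate 4 for *Ngp* and *Elane*.

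Fc receptor and signalling genes were among those whose effect was called lower in Ly6C hi than in Ly6C low monocytes. *Syk* read 263, 210.3, 249 and 352 RPM in WT and 502, 656, 569 and 661 RPM in *Slc29a3*-/- Ly6C low libraries (difference 1.16, adjusted P = 4.6e-05), and the effects differed by -0.97 ± 0.23 (adjusted P = 0.0074). *Fcgr2b*, the inhibitory Fc receptor, read 27.7, 27.9, 28.3 and 37.9 RPM and 57.2, 106, 72.96 and 105 RPM in Ly6C low libraries and 55.4, 58.01, 66.03 and 95.7 RPM and 64.2, 81.4, 69.6 and 86.4 RPM in Ly6C hi libraries, and the effects differed by -1.27 ± 0.36 (adjusted P = 0.027). *Fcgr3*, the activating FcγRIII, read 624, 538, 555 and 595 RPM and 459, 429, 431 and 367 RPM in Ly6C hi libraries, and its effects differed by -0.95 ± 0.24 (adjusted P = 0.012). With WT replicates 1 to 3 averaged, the adjusted P of the difference was 0.081 for *Syk*, 0.17 for *Fcgr2b* and 0.19 for *Fcgr3*. *Ccl9* read 528, 482, 531 and 573 RPM and 936, 766, 1052 and 991 RPM in Ly6C low libraries (difference 0.82, adjusted P = 0.0078) and was lower in Ly6C hi monocytes, and the effects differed by -1.59 ± 0.26 (adjusted P = 0.00043, and 0.043 against WT replicate 4 of each subset). *C1qb* likewise read 74.2, 65.5, 53.5 and 57.3 RPM and 78.6, 158, 139 and 241 RPM in Ly6C low libraries, with effects that differed by -3.18 ± 0.46 (adjusted P = 0.00016, and 0.025 against WT replicate 4).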

How the data were processed

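The table that the authors deposited holds RPM of 23930 amplicons in 24 libraries, each scaled to its own total. The authors trimmed reads (Cutadapt), aligned them to mm10 (STAR), counted them (HTSeq) and normalized them (DESeq2) by the methods of the study, whereas the sample descriptions name Torrent Suite. Which step wrote the table is not given in the sources used here. PCR reads of an amplicon are not independent molecules. A value of 0.0001 was set to 0, and 27 gene names turned into dates were repaired from amplicon names. Positions came from GENCODE vM21 (mm10) for 21334 symbols.

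Values were transformed to log2(RPM + 1), on which fold changes of low genes are understated, and genes that reached 1 RPM in 4 or more of the 12 Ly6C hi libraries were fitted with limma 3.58.1 (intensity trend, R 4.3.3), the 3 genotypes sharing 1 estimate of the spread. Calls needed a Benjamini-Hochberg adjusted P under 0.05 and a fold change over 1.5. Effects were compared between subsets as an interaction over all 24 libraries. The code was tested on simulated data. Alternatives were TMM and RLE scaling, other filters, a pseudocount of 0.1, other libraries in the fit, no trend, a block by replicate number, leaving out each library, WT replicate 4 alone and, added after seeing the data, WT replicates 1 to 3 averaged. Named genes were the largest changes without overlap, overall and against both sets of WT libraries, examples of each list, gate genes and sex-linked genes, and others are marked. Lack of overlap in the largest changes thus came from the choice. The members and the gene lists were chosen with earlier results of these data known. Figures and tables were made with Python 3.11.15, pandas 2.3.3 and matplotlib 3.10.9.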

Additional observations from a re-analysis of the deposited data

Results flagged for a closer look

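A library stood apart in 54 of the 246 groups of 4 libraries checked (the named genes in 2 genotypes), where its gap to the nearest other library took more of the range of the group than Dixon's 95% limit. Chance gives this in about 1 in 20 independent groups. These groups share the same 8 libraries, and their genes were chosen with earlier results known, so 54 cannot be set against that rate. The library apart was WT replicate 4 in 48 groups, no other WT library in any, and a *Slc29a3*-/- library in 6. WT replicate 4 carried *Xist* at 0 RPM (gap 0.985 of the range) and *Ddx3y* at 97.0 RPM (gap 1), and *Slc29a3*-/- replicate 1 carried *Xist* at 0.876 RPM (gap 0.936) and *Ddx3y* at 81.8 RPM (gap 1). WT replicate 4 lay below the other WT libraries for immediate early, NF-κB and secreted factor genes, with gaps, as shares of the range, of *Fos* 0.957, *Jun* 0.989, *Egr1* 0.968, *Rgs1* 0.982, *Ccl3* 0.988, *Ccl2* 0.982, *Dusp1* 0.964, *Atf3* 0.986, *Zfp36* 0.946, *Junb* 0.965, *Nfkbia* 0.957, *Il1b* 0.864, *Thbs1* 0.938 and *Cd14* 0.953. For lymphocyte, dendritic cell and eosinophil genes it was also the lowest, with gaps of *Klrb1c* 0.931, *Siglech* 0.902, *Cd3e* 0.94, *Lck* 0.925, *Gzma* 0.904, *Ncr1* 0.901, *Ctsw* 0.927 and *Prg2* 0.951. Among cell cycle genes, with *Myb*, it was the lowest with gaps of *Rrm2* 0.874, *Tk1* 0.91, *Cdkn1a* 0.864, *Plk1* 0.854, *Birc5* 0.97, *E2f8* 0.878 and *Myb* 0.861. Other genes with WT replicate 4 lowest had gaps of *Camp* 0.917, *Cxcr2* 0.855, *Klf4* 0.938, *Cebpa* 0.842, *Bcl2* 0.847, *Retnlg* 0.959 and *Nt5e* 0.876. It was the highest WT library for genes of monocytes, Toll-like receptors and others, with gaps of *Mmp8* 0.922, *C3* 0.881, *Ccr2* 0.848, *F13a1* 0.943, *Vcan* 0.979, *Fn1* 0.842, *Tlr8* 0.918, *Tlr4* 0.905, *Tlr13* 0.956 and *Hp* 0.843. Among *Slc29a3*-/- libraries, replicate 2 stood apart for *Siglecf* (gap 0.89), replicate 3 stood apart for *Cdkn1a* (gap 0.954), replicate 1 stood apart for *Mmp8* (gap 0.844) and replicate 4 stood apart for *Csf1r* (gap 0.835).

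The *Slc29a3*-/- effect differed between Ly6C hi and Ly6C low monocytes for 61 of the named genes (limma interaction, adjusted P under 0.05 and a difference over 1.5-fold). Of all 10901 genes tested, 972 were called, and 260 with WT replicates 1 to 3 averaged. Named genes included the largest Ly6C hi differences, which are part of what is compared, so the count of 61 is no separate result. The difference is given here as the log2 effect in the Ly6C hi subset less the one in the Ly6C low subset. Among cell cycle and histone genes, it was 1.43 for *Mcm5*, 1.62 for *Cdc6*, 1.61 for *Rrm2*, 1.58 for *Tk1*, 1.38 for *Ccnb2*, 1.32 for *Aurkb*, 2.03 for *Plk1*, 1.61 for *Birc5*, 1.59 for *Tpx2*, 2.03 for *E2f8*, 1.96 for *Hist2h4*, 1.74 for *Hist1h2bm*, 2.64 for *Hist1h1b*, 1.69 for *Hist1h2ab*, 2.18 for *Cdca7* and 1.11 for *Mcm3*. Among granule and neutrophil genes, it was 3.44 for *Ly6g*, 3.71 for *Elane*, 3.24 for *Prtn3*, 3.23 for *Ctsg*, 2.37 for *Mpo*, 3.16 for *Ms4a3*, 4.82 for *Wfdc21*, 4.53 for *Ngp*, 4.86 for *Camp*, 4.91 for *Ltf*, 4.62 for *S100a8*, 4.97 for *S100a9*, 2.03 for *Cxcr2* and 2.27 for *Cd177*. These differences include a decrease in Ly6C low monocytes, where the secondary granule list had a median effect of -2.02, against 1.63 in Ly6C hi monocytes. As given above, *Ngp* and *Elane* lost the call against WT replicate 4 of each subset. Among factors and receptors of the granulocyte and monocyte branches, it was 2.75 for *Gfi1*, 2.29 for *Cebpe*, 1.58 for *Kit*, 1.64 for *Myb* and -1.2 for *Irf8*. Of the other genes, the effect was higher in Ly6C hi monocytes by 1.6 for *Siglecf*, 2.74 for *Gm3942*, 2.33 for *Clec4b2*, 3 for *Adgrg3*, 2.31 for *Prom1*, 1.39 for *Trem3* and 2.24 for *Ada*. Markers of dendritic cells, lymphocytes and macrophages had a lower effect in Ly6C hi monocytes, at -1.42 for *Clec9a*, -2.26 for *Xcr1*, -2.05 for *Ccr9*, -2.78 for *Cd3e*, -2.78 for *Fcna*, -3.18 for *C1qb*, -3.79 for *Pou2af1* and -3.08 for *Mzb1*. It was also lower for the remaining genes, at -1.22 for *Fcgr4*, -2.41 for *Il1b*, -1 for *Ccl6*, -1.59 for *Ccl9*, -1.25 for *Tlr8*, -0.97 for *Syk*, -1.27 for *Fcgr2b*, -0.95 for *Fcgr3*, -1.5 for *Ctsl*, -1.28 for *Pld3* and -1.24 for *Adk*.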

How the results depend on the processing

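The choice of WT libraries changed the number of calls most. The 861 higher and 1507 lower calls became 350 and 184 against WT replicate 4 alone, and 433 and 358 with WT replicates 1 to 3 averaged into 1 sample. Requiring a mean of at least 10 RPM left 887 lower calls out of 7558 genes tested. With 1 library left out, higher calls ranged from 682 to 924 and lower calls from 1098 to 1616. Genes whose effect differed between the subsets were 972, and 623 with the mean of at least 10 RPM, 260 with WT replicates 1 to 3 averaged, 197 against WT replicate 4 alone and 646 to 1038 with 1 library left out, the lowest without *Slc29a3*-/- replicate 4 (646). Against WT replicate 4 alone the sign turned for *Jun* (0.54), *Egr1* (0.22), *Nfkbia* (0.18), *Bcl2* (0.18) and *Retnlg* (0.51). Of the 101 named genes called, 38 kept the call against WT replicate 4 alone and 58 with WT replicates 1 to 3 averaged, and 93 with TMM scaling, 95 with RLE scaling, 86 with no filter, 101 with a pseudocount of 0.1, 101 with the 8 libraries alone, 92 with all 24 libraries, 97 with no intensity trend and 87 to 96 with 1 library left out. What these calls turned on in the WT libraries was not tested. Depth of 12561411 reads or more limits only genes near 1 RPM.

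Same-numbered WT and *Slc29a3*-/- libraries did not deviate together (correlations of -0.19, -0.03, 0.08 and -0.1 over genes). The replicate number thus showed no pairing of WT with *Slc29a3*-/- libraries. Whether Ly6C hi and Ly6C low libraries of the same genotype and number came from the same mice was not tested. With the replicate number as a block, 838 genes were higher and 1479 lower, and 98 of the 101 named calls were kept. With genotype and replicate number as the block, 1026 genes differed between the subsets, against 972 in the main fit. The planned tests with edgeR and DESeq2 on the rebuilt reads were not run.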
